A study of Mus musculus with 12 samples.

Results

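The AP-1 and early response factors are 10 genes, Fos, Fosb, Fosl1, Fosl2, Jun, Junb, Jund, Atf3, Egr1, and Maff, chosen by symbol from the 56941 genes counted in bulk RNA-seq of 3T3-L1, a fibroblast line of mouse embryo origin. Each symbol had 1 row in the counts, and all 10 genes passed the filter on low counts that left 14810 genes for testing. Wild-type cells were cultured for 24 hours in 4 conditions with 3 libraries each. Control cells carry the treatment label vehicle, although their library names call them untreated. IL-4/13 cells received the type 2 cytokines IL-4 and IL-13, each at a dose of 50 ng/mL. Inf cells received an inflammatory cocktail in which the dose was 20 ng/mL for TNF-α, 50 ng/mL for IL-17A, and 0.5 ng/mL for IL-1β. IL-4/13 + Inf cells received all of these cytokines at the same doses. All libraries come from 1 immortalized line, which stands in for dermal fibroblasts, and all carry 1 batch label. The labels do not say whether the libraries of a condition came from separate cultures, so the p-values measure only the spread between these samples, which may be technical.

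Members of the FOS, JUN, ATF, and MAF families share a basic leucine zipper, through which they pair with one another and bind DNA. AP-1 is the collective name for these pairs, of which FOS with JUN is the best known. Many of these genes, together with the zinc finger factor Egr1, are switched on within minutes of a stimulus and switched off again within hours, through kinases of the ERK, JNK, and p38 families and through SRF. In fibroblasts, AP-1 is known for controlling genes of matrix breakdown, growth, and inflammation. Because RNA was taken at 24 hours, the values below describe levels that were sustained or reached late, and the early rise and fall of these transcripts was not measured.

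At 24 hours, Inf was accompanied by more Junb, Jund, Atf3, and Maff transcript and by less Egr1 transcript. Junb rose 1.68-fold and Atf3 rose 1.77-fold, whereas Egr1 fell to 0.528 of its control level. IL-4/13 alone upregulated Jun 1.21-fold and Junb 1.20-fold, and no other member was called. Adding IL-4/13 to Inf raised Atf3 a further 1.44-fold, a call that some fits without 1 library lost. Junb had its highest mean level with IL-4/13 + Inf, but its difference from Inf was not called. These folds come from the fit described below, and single libraries held from 1.66 CPM of Fosb to 303 CPM of Fosl2, where CPM is the usual unit of counts normalized to the size of the library.

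The promoter sequences of 4 of the genes, whose transcripts differed in response or in level, are shown. Junb rose in each cytokine condition, Jun rose with IL-4/13 alone, Maff rose with Inf, and Fos was the least expressed of these 4. Each sequence is the 250 bases before a transcript start annotated by RefSeq on the GRCm38.p6 build, read 5′ to 3′ on the strand of the gene, and capitals mark motif matches. The counts were made on GRCm39 and carry no coordinates, so these positions apply to GRCm38.p6 only. The Junb window is chr8:84978749-84978998 on the minus strand, the Jun window is chr4:95052223-95052472 on the minus strand, the Fos window is chr12:85473640-85473889 on the plus strand, and the Maff window is chr15:79347270-79347519 on the plus strand. None of the 4 windows overlaps an annotated exon. The Jun window lies within the span of Junos, an antisense gene, and the Maff window lies within the span of Maff, before the second of its 3 listed starts.
Junb: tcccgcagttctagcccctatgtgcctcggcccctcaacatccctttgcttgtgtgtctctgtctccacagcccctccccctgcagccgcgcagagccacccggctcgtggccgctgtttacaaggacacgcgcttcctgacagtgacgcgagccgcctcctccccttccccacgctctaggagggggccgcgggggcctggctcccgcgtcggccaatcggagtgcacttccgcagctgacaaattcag
Jun: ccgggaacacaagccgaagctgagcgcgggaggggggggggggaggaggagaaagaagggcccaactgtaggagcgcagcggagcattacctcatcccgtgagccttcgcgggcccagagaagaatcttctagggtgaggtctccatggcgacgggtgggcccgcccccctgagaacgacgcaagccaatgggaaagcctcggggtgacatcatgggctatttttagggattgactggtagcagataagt
Fos: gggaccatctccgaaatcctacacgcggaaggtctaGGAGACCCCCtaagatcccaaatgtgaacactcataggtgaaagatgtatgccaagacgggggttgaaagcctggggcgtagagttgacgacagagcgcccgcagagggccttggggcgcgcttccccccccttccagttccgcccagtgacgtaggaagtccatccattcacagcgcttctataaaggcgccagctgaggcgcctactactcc
Maff: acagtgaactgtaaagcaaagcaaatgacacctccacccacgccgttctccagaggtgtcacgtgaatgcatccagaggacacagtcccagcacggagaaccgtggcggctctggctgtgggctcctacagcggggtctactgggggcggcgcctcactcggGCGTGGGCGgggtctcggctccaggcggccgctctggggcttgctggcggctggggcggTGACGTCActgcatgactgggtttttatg

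In the Maff window, capitals mark GCGTGGGCG, the EGR motif, at 88 to 80 bases before the start, and TGACGTCA, the cAMP response element (CRE), at 29 to 22 bases before the start. In the Fos window they mark a match to the kappaB motif on the opposite strand, at 214 to 205 bases before the start. RefSeq windows were listed for 8 of the 10 genes, in 10 entries, and not for Egr1 and Fosl1. Both strands of the 10 entries were searched for TGANTCA (AP-1), TGACGTCA (CRE), GCGTGGGCG (EGR), and the STAT6, CArG box, and kappaB motifs. The AP-1, STAT6, and CArG box motifs matched 0 entries, the CRE and EGR motifs matched 1 entry each, and the kappaB motif matched 4 entries, those of Fos, Fosb, Fosl2, and the last Maff start. Of 32851 RefSeq windows of the same length, 6.75% held the AP-1 motif, 1.55% the CRE, 0.536% the EGR motif, 5.85% the STAT6 motif, 1.47% the CArG box, and 3.90% the kappaB motif. A match describes letters in the window and is not evidence of binding, and the absence of a match concerns these letters in this window only.

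Total counts per library ranged from 13446005 to 20775769, and 3 counts in a library are treated as the limit of detection. Counts were scaled with edgeR's TMM factors, and a quasi-likelihood model of all 12 libraries tested each gene. A gene was called at a Benjamini-Hochberg adjusted p below 0.05 over all tested genes and a log2 fold change beyond 0.25. Genes known to respond to these cytokines were examined to check the labels. The NF-κB inhibitor Nfkbia rose by 2.90 on the log2 scale and the inhibitor Tnfaip3 by 2.78 with Inf, the IL-13 decoy receptor Il13ra2 rose by 4.12 with IL-4/13 and by 7.22 with Inf, the cytokine signaling suppressor Socs1 rose by 1.09 with IL-4/13, and the antimicrobial Lcn2 rose by 12.71 with Inf. These genes do not each mark 1 treatment, since edgeR called all 5 of them higher with Inf. With IL-4/13 alone 3 were called higher, among them Nfkbia by 0.40 on the log2 scale. Control libraries held 2, 5, and 2 counts of Lcn2 and 6, 8, and 5 of Il13ra2, so the rises of these 2 genes start from few counts. All 8 fibroblast markers examined were detected. Their summed level was 14632 to 16687 CPM for control libraries, 12641 to 13306 CPM for IL-4/13, 12618 to 13634 CPM for Inf, and 10611 to 10854 CPM for the combination. These sums hide opposite changes, since edgeR called 3 of the markers higher and 4 lower with Inf. Mean Dcn went from 103 CPM in control to 1756 CPM with Inf, Pdgfra from 196 to 385 CPM, and Pdgfrb from 269 to 481 CPM. Of 7 macrophage markers, 5 exceeded 3 counts in a library, and their sum went from 20.2–23.6 CPM in control to 44.7–59.5 CPM in Inf, most of it Cd14. Csf1r at 27 to 75 counts, Lyz2 at 21 to 56, and Cd68 at 10 to 32 were also detected in every library. Adgre1 and Itgam had at most 1 count in a library. T cell, epithelial, and endothelial markers summed to at most 1.58 CPM in any library. Of 5 adipocyte markers, only Fabp4 was detected, with the list summing to 10.7–12.3 CPM in control and 28.7–32.2 CPM in Inf. In bulk RNA, more cells of a type and more RNA per cell cannot be told apart, and the part of these shifts in the results below was not tested. The Inf replicate 3 library stood further from its partners than any other library, with a chi-square per degree of freedom of 9.41 and 8.94 against at most 4.96 for the other 10 pairs. Without it, Inf against control still called 6 members higher and 1 lower, and the count in 1 other comparison changed, as stated there.

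**Figure D1:**
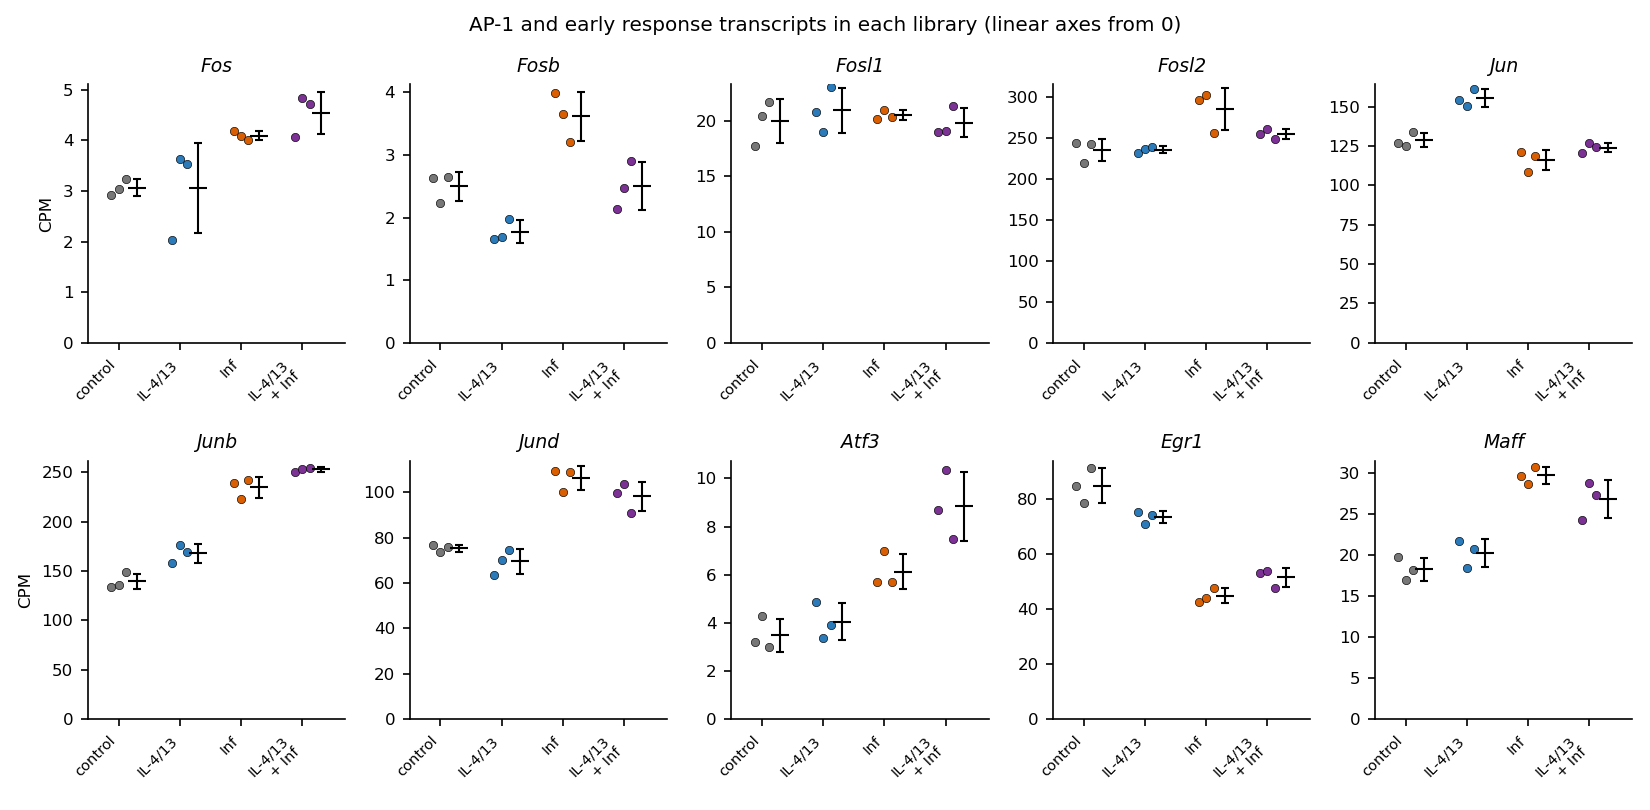
CPM of each of the 10 genes in the 12 libraries, on linear axes from 0 that differ between panels. Points are single libraries, and the bar beside them is the mean with the SD of 3 libraries. Junb, Jund, and Maff sit higher in all libraries that received Inf, Egr1 does so in the opposite direction, and Fosl1 stays between 17.8 and 23.0 CPM throughout.

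The levels of the genes were compared per kilobase of exon, because a longer transcript gives more counts. Exon lengths were the union of exons in GENCODE M21, so the order between genes depends on which isoforms the cells use. In control cells the order was Junb at 60.6 ± 3.43 CPM per kb (SD, n = 3), Jund at 45.1 ± 0.956, Jun at 40.3 ± 1.46, Fosl2 at 24.3 ± 1.42, Egr1 at 18.9 ± 1.44, Fosl1 at 9.82 ± 0.981, Maff at 7.05 ± 0.548, Atf3 at 1.62 ± 0.319, Fos at 1.30 ± 0.070, and Fosb at 0.401 ± 0.0372. Atf3 and Fos, neighbors in this order, differed by about the SD of Atf3. With Inf, Egr1 at 9.99 ± 0.602 CPM per kb stood below Maff at 11.5 ± 0.407 and level with Fosl1 at 10.1 ± 0.222, whose libraries overlapped with those of Egr1. With IL-4/13 + Inf, Egr1 was at 11.5 ± 0.778 CPM per kb and its libraries overlapped with those of Maff at 10.3 ± 0.894. The JUN family thus held more transcript per kb than the FOS family in every library.

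Fosl2 and Fosl1 made up nearly all FOS family transcript. In control cells, Fosl2 held 67.9% ± 2.61 and Fosl1 27.4% ± 2.53 of the family's summed CPM per kb (SD, n = 3), and Fos and Fosb together held the rest. The summed level of the FOS family was 35.9 ± 1.56 CPM per kb for control libraries, 36.3 ± 1.40 for IL-4/13, 41.9 ± 2.82 for Inf, and 38.4 ± 0.561 for the combination. The sum in Inf replicate 3, 38.7 CPM per kb, was inside the range of the IL-4/13 + Inf libraries, whereas the other Inf libraries were above all others.

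Fosl2, a FOS family member that lacks the strong activation domain of Fos, was present at 245, 220, and 243 CPM in the 3 control libraries. It was at 232, 237, and 239 CPM with IL-4/13, at 297, 303, and 256 CPM with Inf, and at 255, 261, and 248 CPM with IL-4/13 + Inf. All Inf libraries were above the control libraries, although Inf replicate 3 sat with the IL-4/13 + Inf libraries. The log2 fold change with Inf was 0.28 (SE 0.0526, edgeR adjusted p = 9.3e-05), just past the threshold, and fell to 0.23 without control replicate 2. It was also below 0.25 without Inf replicate 1 or Inf replicate 2, and 0.35 without Inf replicate 3. From Inf to IL-4/13 + Inf the difference was −0.16 (adjusted p = 0.023), short of the fold change threshold.

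Fosl1, the other abundant FOS family member and a frequent target of AP-1 itself, did not pass the test in any comparison. Its libraries ranged from 17.8 to 21.7 CPM in control and from 20.1 to 21.0 CPM in Inf. The 95% interval of the log2 fold change with Inf was −0.15 to 0.23, so a larger change than these bounds was not detected. Of its annotated exon bases, 57.2% overlap Ccdc85b on the opposite strand, which fell by 0.40 on the log2 scale with Inf. The libraries were made with a stranded kit, but the strand setting of the counting is not given in the sources used here, so reads of this pair may not have been separated.

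Fos, the founding member of the family, was close to the low end of what these libraries can measure, with 38 to 86 counts per library. It was at 2.91, 3.04, and 3.24 CPM in control and at 2.04, 3.63, and 3.53 CPM with IL-4/13. It reached 4.19, 4.09, and 4.0 CPM with Inf and 4.07, 4.83, and 4.72 CPM with IL-4/13 + Inf. All libraries with Inf were above all libraries without it. The rise with Inf alone, 0.42 on the log2 scale, did not pass the test (edgeR adjusted p = 0.099), and that with IL-4/13 + Inf against control did (0.56, SE 0.199, adjusted p = 0.028). That call was lost when control replicate 1 or 2 or IL-4/13 + Inf replicate 2 or 3 was left out, with adjusted p from 0.065 to 0.094 in these fits.

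Fosb, which encodes a close relative of Fos, was the lowest of the 10 genes per kb, with 26 to 75 counts per library. It was at 2.63, 2.23, and 2.64 CPM in control, 1.66, 1.68, and 1.98 CPM with IL-4/13, 3.99, 3.65, and 3.21 CPM with Inf, and 2.13, 2.47, and 2.90 CPM with IL-4/13 + Inf. The IL-4/13 libraries were below and the Inf libraries above the control libraries, and the IL-4/13 + Inf libraries overlapped with control. The rise with Inf was 0.53 on the log2 scale (SE 0.210, edgeR adjusted p = 0.043). The call was lost when any 1 control library, Inf replicate 1, or Inf replicate 2 was left out (adjusted p from 0.063 to 0.13). It was also lost with DESeq2 (adjusted p = 0.081), and over the alternatives tried with all libraries of the comparison the adjusted p ranged from 0.043 to 0.10. The differences of −0.50 with IL-4/13 alone (adjusted p = 0.21) and −0.54 when IL-4/13 was added to Inf (adjusted p = 0.062) also did not pass.

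**Figure D2:**
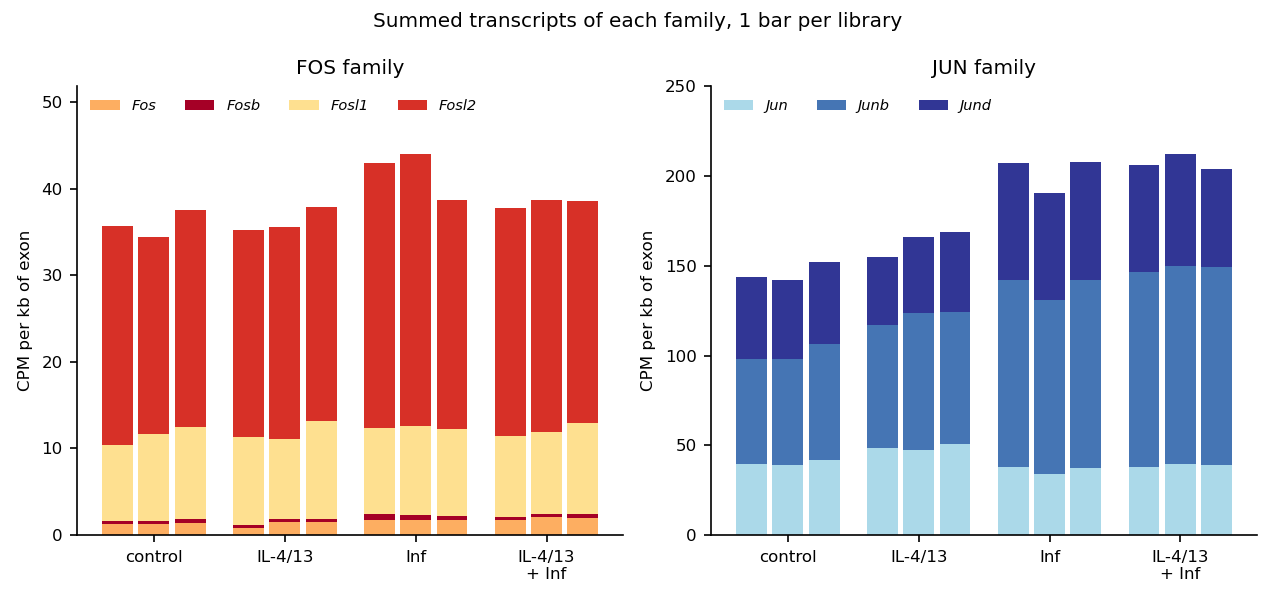
Summed CPM per kb of exon of the FOS family (left) and JUN family (right), 1 bar per library on axes from 0, with the share of each gene stacked. The FOS family is mostly Fosl2 and Fosl1, and the JUN bars are higher in the libraries with Inf, with a thinner share of Jun.

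JUN family transcript per kb was higher in every library with Inf than in any without it, and the share of Jun was lower and that of Junb higher. These sums and shares were not tested. The summed level was 146 ± 5.12 CPM per kb for control libraries, 163 ± 7.31 for IL-4/13, 202 ± 9.71 for Inf, and 207 ± 4.13 for the combination (SD, n = 3 for each condition). Jun held 27.6% ± 0.0354 of the family for control, 29.8% ± 1.37 for IL-4/13, 18% ± 0.232 for Inf, and 18.7% ± 0.346 for the combination. Junb held 41.5% ± 1.01 for control, 44.7% ± 1.33 for IL-4/13, 50.5% ± 0.289 for Inf, and 53.0% ± 1.15 for the combination. The shares of Jun with Inf, in 2 conditions, were below those of every library without Inf.

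Junb, which can act as a brake on Jun as well as an activator, had the smallest adjusted p of the 10 genes with Inf. Its levels were 134, 136, and 148 CPM in control and 158, 176, and 170 CPM with IL-4/13. They were 239, 222, and 242 CPM with Inf and 250, 254, and 255 CPM with IL-4/13 + Inf. The 4 conditions did not overlap. The log2 fold change against control was 0.75 with Inf (SE 0.0495, edgeR adjusted p = 9.5e-14), 0.86 with IL-4/13 + Inf (SE 0.0495, adjusted p = 3.4e-15), and 0.27 with IL-4/13 alone (SE 0.0501, adjusted p = 4.3e-04). The response to IL-4/13 was near the threshold, at 0.24 without control replicate 1 and 0.23 without IL-4/13 replicate 2. From Inf to IL-4/13 + Inf the difference was 0.11 (adjusted p = 0.11). Prdx2 overlaps 7.52% of the exon bases of Junb on the opposite strand and differed by 0.23 on the log2 scale with Inf, short of the fold change threshold.

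Jun, the main activating partner of FOS proteins, behaved differently from Junb. It was at 127, 125, and 134 CPM in control, 154, 150, and 161 CPM with IL-4/13, 121, 109, and 118 CPM with Inf, and 121, 127, and 124 CPM with IL-4/13 + Inf. The IL-4/13 libraries were above all others. The log2 fold change was 0.27 with IL-4/13 (SE 0.0495, edgeR adjusted p = 3.2e-04) and was 0.24 without IL-4/13 replicate 3. With Inf it was −0.15 (adjusted p = 0.015), short of the fold change threshold. The antisense gene Junos, which overlaps 7.28% of the exon bases of Jun, had a log2 fold change of 0.63 with Inf (adjusted p = 0.0028). Jun was lower in IL-4/13 + Inf than in IL-4/13 by 0.33 on the log2 scale (SE 0.0495, adjusted p = 3.5e-06).

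Jund, a JUN family member that is made more steadily than the others and can restrain growth, was at 76.7, 73.6, and 75.7 CPM in control and 63.7, 70.3, and 74.4 CPM with IL-4/13. It reached 109, 100, and 109 CPM with Inf and 99.4, 104, and 91.0 CPM with IL-4/13 + Inf. All libraries with Inf were above all libraries without it. The rise was 0.49 with Inf (SE 0.0593, edgeR adjusted p = 4.6e-08) and 0.38 with IL-4/13 + Inf (SE 0.0594, adjusted p = 4.7e-06). The antisense gene Gm11175, which overlaps 52.6% of its exon, had 0 counts in all libraries.

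Atf3, a stress-induced factor that pairs with JUN proteins and often represses, rose with Inf and rose further when IL-4/13 was added. It was at 3.20, 4.28, and 3.00 CPM in control, 4.88, 3.37, and 3.90 CPM with IL-4/13, 5.72, 6.96, and 5.70 CPM with Inf, and 8.68, 10.3, and 7.49 CPM with IL-4/13 + Inf. The Inf libraries were above control and IL-4/13, and the IL-4/13 + Inf libraries were above all others. The log2 fold change was 0.82 with Inf (SE 0.181, edgeR adjusted p = 4.5e-04) and 1.35 with IL-4/13 + Inf (SE 0.174, adjusted p = 1.9e-07). The further rise from Inf to IL-4/13 + Inf was 0.52 (SE 0.159, adjusted p = 0.016). That call was lost without Inf replicate 1 (adjusted p = 0.055) and without IL-4/13 + Inf replicate 2 (adjusted p = 0.14). With IL-4/13 alone the difference was 0.23 (95% interval −0.17 to 0.63, adjusted p = 0.57).

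Maff, a small MAF protein that binds DNA but lacks an activation domain of its own, was at 19.8, 16.9, and 18.2 CPM in control and 21.7, 18.4, and 20.8 CPM with IL-4/13. It was at 29.7, 28.7, and 30.8 CPM with Inf and 24.3, 28.8, and 27.4 CPM with IL-4/13 + Inf. All libraries with Inf were above all libraries without it. The rise was 0.70 with Inf (SE 0.0879, edgeR adjusted p = 1.1e-07) and 0.55 with IL-4/13 + Inf (SE 0.0886, adjusted p = 8.4e-06). The EGR and CRE motifs printed above lie before the second Maff start, and the gene-level counts do not tell the starts apart.

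Egr1, a zinc finger activator of growth and repair genes, was the only member called lower than control, with Inf and with IL-4/13 + Inf. It was at 84.7, 78.5, and 91.3 CPM in control and 75.3, 70.9, and 74.1 CPM with IL-4/13. It was at 42.7, 43.9, and 47.8 CPM with Inf and 53.1, 54.0, and 47.6 CPM with IL-4/13 + Inf. All libraries with Inf were below all libraries without it, and the 2 conditions with Inf overlapped. Egr1 fell by 0.92 on the log2 scale with Inf (SE 0.0648, edgeR adjusted p = 4.3e-13) and by 0.72 with IL-4/13 + Inf against control (SE 0.0639, adjusted p = 1.0e-10). With IL-4/13 alone the difference was −0.21 (adjusted p = 0.035), inside the fold change threshold. It was 0.21 when IL-4/13 was added to Inf (adjusted p = 0.024), so the sign of the IL-4/13 response differed with and without Inf. The test of that difference, the interaction term, gave 0.41 (SE 0.0915, adjusted p = 0.0059).

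**Figure D3:**
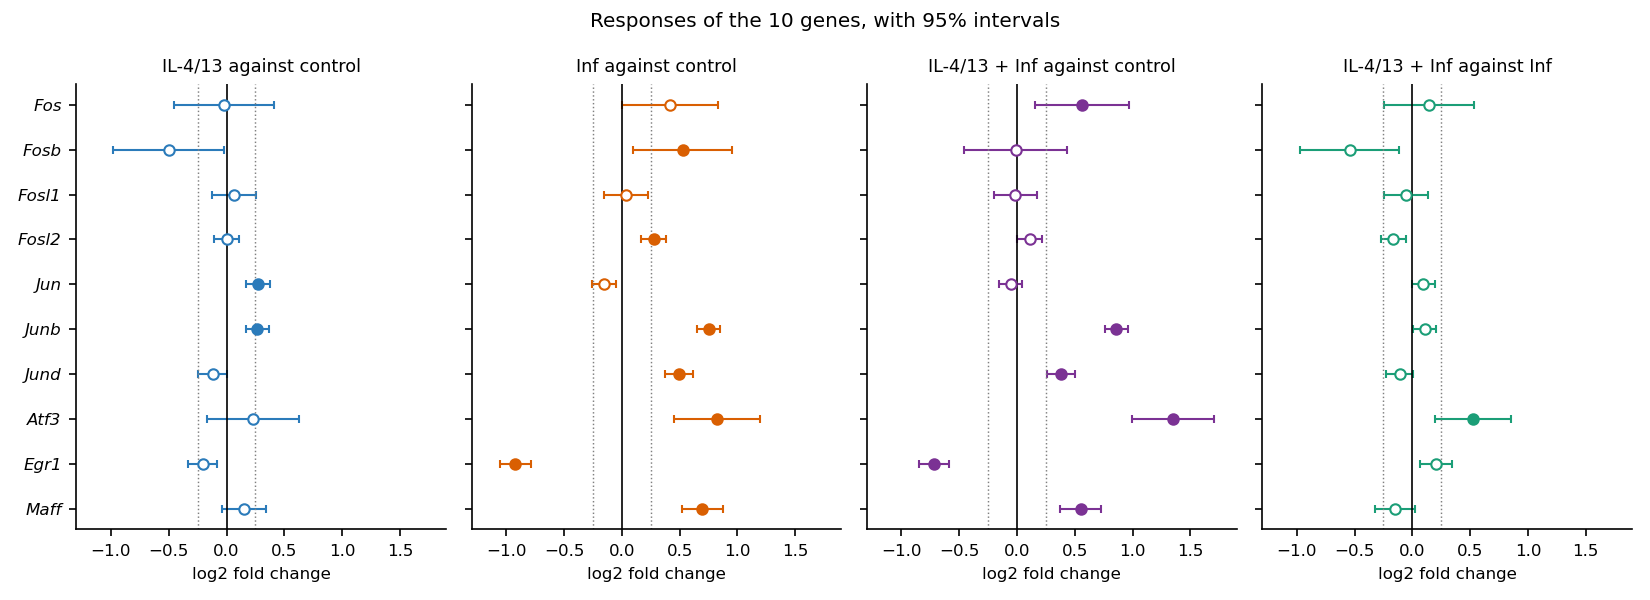
Log2 fold changes of the 10 genes in 4 comparisons, with 95% intervals from the edgeR fit. Filled points passed an adjusted p of 0.05 and a log2 fold change beyond 0.25 (dotted lines), and open points did not. Junb, Jund, Atf3, and Maff are filled to the right and Egr1 to the left in both comparisons of Inf-treated cells with control.

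Counted together, the 10 genes were read against all tested genes in each comparison. The members were chosen with earlier results of these data known. The shares and medians of all genes therefore give a reference and are not a test of the list. The comparisons with control share the same control libraries, so their values stand side by side and their agreement is not a separate result. With IL-4/13 alone, edgeR called 2 members higher and 0 lower, and 4 had an unadjusted p below 0.05. Of all tested genes, 2.78% were higher and 2.57% lower, and the median log2 fold change was 0.034 over the members and −0.0014 over all genes. DESeq2 gave the same counts of 2 and 0. With Inf, 6 members were higher and 1 lower, where 16.3% of all tested genes were higher and 15.3% lower. DESeq2 and the fit with a replicate block gave 5 and 1, and leaving out 1 library gave 4 to 6 higher and 1 lower. The median over the members was 0.45 against 0.0073 over all genes. With IL-4/13 + Inf against control, 5 members were higher and 1 lower, beside 13.4% and 11.5% of all genes, with medians of 0.25 and −0.00084.

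When IL-4/13 was added to Inf, edgeR called 1 member higher, Atf3, and 0 lower, and 5 had an unadjusted p below 0.05. Of all tested genes, 7.55% were higher and 7% lower in this comparison, and the medians were 0.021 over the members and −0.0098 over all genes. DESeq2 also called 1 and 0, and leaving out Inf replicate 3 made it 2 and 0, with Egr1 at 0.26 (adjusted p = 0.005). When Inf was added to IL-4/13, 5 members were higher, Fos, Junb, Jund, Atf3, and Maff, and 2 lower, Jun and Egr1, beside 13.3% and 11% of all genes. The medians were 0.44 and −0.0021. The call on Fos was lost without IL-4/13 replicate 1 (adjusted p = 0.24) or IL-4/13 + Inf replicate 2 or 3. In the interaction, which asks whether the log2 response to IL-4/13 differed with Inf, Egr1 was the 1 member called higher and 0 were called lower by edgeR and by DESeq2, beside 1.52% and 1.59% of all genes, and 5 members had an unadjusted p below 0.05. Jun and Maff were among those 5, with interaction terms of −0.18 and −0.30 that did not pass after adjustment (adjusted p = 0.21 and 0.24).

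Across the 12 libraries, the log2 CPM of the members followed the presence of Inf to different degrees. Egr1 ran against Maff and Junb, with Pearson's r of −0.919 and −0.917, and Junb ran with Maff at 0.891 and with Jund at 0.850. Fosl1 was related to no other member beyond 0.272 in size. These values describe 4 conditions of 3 libraries that share their treatments and are not independent points. Of all tested genes, those whose log2 CPM was most like Junb were Tnip3 at 0.993, Nfkbie at 0.992, and Lgals3 at 0.988, and those most like Egr1 were Slc7a5 at 0.985, Gpt2 at 0.984, and Ap2a2 at 0.983. For Jund they were Echs1, Echdc3, and Atg7 (0.977 to 0.980), for Maff they included Frat2 and Nlrx1 (0.974 and 0.970), for Atf3 they were Tmem199, Tfrc, and Morc3 (0.952 to 0.962), and for Jun they were Diras2, Cd300lb, and Ang3 (0.938 to 0.970). For Fosb they were Pdgfrb, Zer1, and Tcn2 (0.963 to 0.970), and for Fosl2 Rnf24, Trerf1, and Mroh1 (0.943 to 0.950). For Fos they were Atg101, Tmem203, and Snap23 (0.902 to 0.932), and for Fosl1 Hmgn2-ps1, Gm37670, and Klhl15 (0.784 to 0.856). Each was picked as the highest of all tested genes over 12 libraries, so the r values are biased upward. Fosl1 was called in no comparison, so its neighbors cannot be read as sharing a response to treatment.

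The fall of Egr1 was accompanied by lower transcript of its relatives and of Srf. With Inf, 3 of 4 tested genes of the EGR family and its NAB corepressors fell and 1 rose, beside 15.3% of all tested genes that fell and 16.3% that rose. Egr3 fell by 1.64 on the log2 scale, Egr2 by 1.02, and Nab2, a corepressor that EGR proteins themselves induce, by 0.56. Egr3 was at 16.5, 17.1, and 20.5 CPM in control and at 6.25, 6.14, and 4.91 CPM with Inf, with no overlap, and Egr4 had 0 counts. Nab1 rose by 0.43. Nab2 also fell with IL-4/13 alone, by 0.33 (edgeR adjusted p = 3.1e-05), and when IL-4/13 was added to Inf, by 0.35 (adjusted p = 6.0e-06). Its levels therefore stepped down from 137–149 CPM in control to 110–116 with IL-4/13, 93.3–99.4 with Inf, and 72.0–79.1 with IL-4/13 + Inf.

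SRF is a factor that, with its ELK and MRTF cofactors, turns on Egr1 and Fos after growth signals. Of 6 SRF and cofactor genes, 0 rose and 2 fell with Inf by edgeR, and 3 had an unadjusted p below 0.05. Over all tested genes 16.3% rose and 15.3% fell, so a count of 2 in so short a list says little about the list. Srf fell by 0.52 (adjusted p = 2.8e-10) and Elk4 by 0.30 (adjusted p = 0.0047). Srf was at 125, 121, and 118 CPM in control and at 86.5, 84.3, and 82.1 CPM with Inf. With IL-4/13 + Inf it was at 95.1, 98.7, and 91.7 CPM, above every Inf library, although the difference of 0.18 was short of the fold change threshold. The interaction term for Srf, chosen after its value was seen, was 0.26 (SE 0.0690, adjusted p = 0.03). With IL-4/13 alone edgeR called 0 genes of this list, and 1 had an unadjusted p below 0.05.

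**Figure D4:**
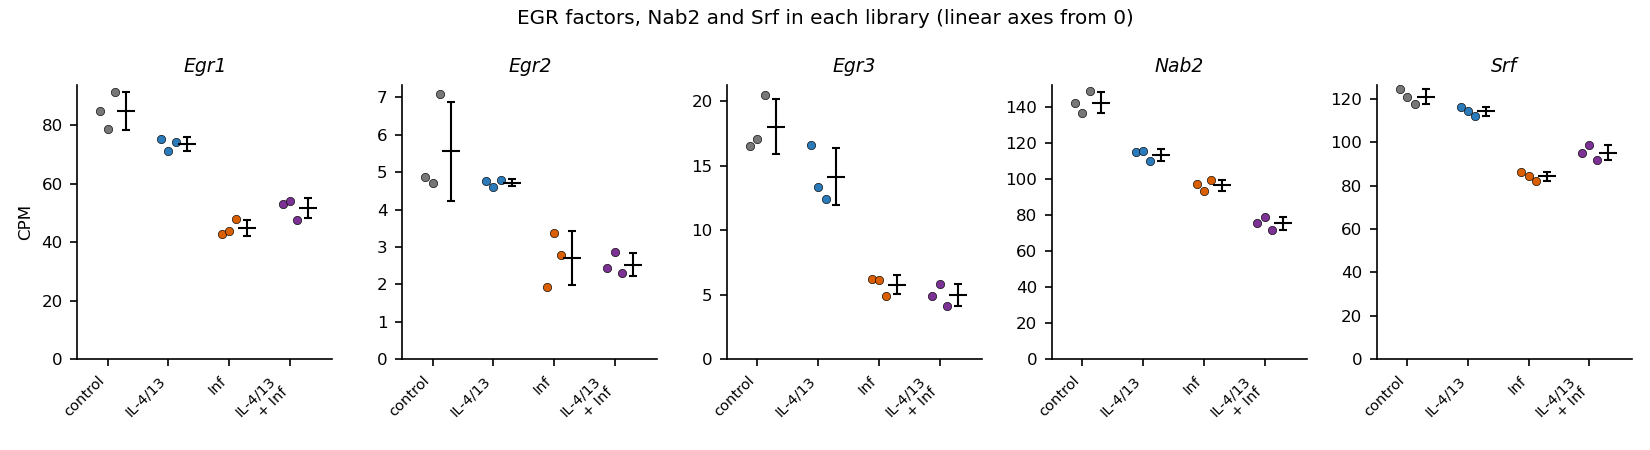
CPM of Egr1, Egr2, Egr3, Nab2, and Srf in the 12 libraries, on linear axes from 0 that differ between panels, with the mean and SD of 3 libraries. In each panel all libraries with Inf are below all libraries without it. Nab2 also steps down with IL-4/13, and Srf is higher in IL-4/13 + Inf than in Inf.

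Of the kinases upstream of AP-1, 4 of 16 tested genes rose and 1 fell with Inf, where 16.3% of all tested genes rose and 15.3% fell, so the list was called about as often as all genes. Map3k8, a kinase that links NF-κB signaling to ERK, had the largest rise, 2.63 on the log2 scale (SE 0.121, edgeR adjusted p = 1.3e-17), from 2.82–3.31 CPM in control to 18.1–19.6 CPM in Inf. Mapk11, a p38 kinase, rose by 0.48, and Map2k1, an activator of ERK, by 0.42. IL-4/13 alone raised 2 kinase genes and lowered 0, beside 2.78% and 2.57% of all tested genes, and 6 had an unadjusted p below 0.05. Map3k8 rose by 0.86 and Map2k6, an activator of p38, by 0.33. Adding IL-4/13 to Inf raised 3, Map2k6 by 0.70, Map2k4, an activator of JNK, by 0.43, and Map3k8 by 0.37, and lowered 1, beside 7.55% and 7% of all tested genes. The median of the list was 0.0048 with Inf.

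Among other bZIP genes of the AP-1 group, 9 of 12 were tested, of which 3 rose and 2 fell with Inf, beside 16.3% and 15.3% of all tested genes. Batf, a lymphocyte AP-1 factor, had 0 counts in all control and IL-4/13 libraries and 2, 7, and 15 counts with Inf. Most of these counts are from Inf replicate 3, the library that stood apart, so no fold is given for Batf with Inf alone. With IL-4/13 + Inf, Batf had 24, 10, and 16 counts, at least 5.27-fold higher than 3 counts in a control library. Mafa rose by 1.08 and Maf fell by 1.22. Maf, a large MAF factor with an activation domain, fell in every comparison with control, from 11.3–16.3 CPM to 7.26–10.3 CPM with IL-4/13, 5.36–6.51 CPM with Inf, and 3.17–3.37 CPM with IL-4/13 + Inf. With IL-4/13 alone it was the 1 gene of the list that was called (log2 fold change −0.65, edgeR adjusted p = 0.0021). Maf was also lower in IL-4/13 + Inf than in Inf, by 0.84 on the log2 scale (edgeR adjusted p = 5.9e-04).

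Of 29 tested early response genes outside the 10, 12 rose and 8 fell with Inf, beside 16.3% and 15.3% of all tested genes. The largest rises were in Cebpd (3.23 on the log2 scale), Ier3 (2.62), and Cebpb (1.69), which encode 2 inflammatory C/EBP factors and a survival factor. Among those that fell were Klf10 by 1.27, Klf4 by 1.04, and Ier2 by 0.73. Ier5l fell more than Klf4, from a mean of 82.3 CPM in control to 36.4 CPM with Inf. All of these falling genes were chosen after their values were seen. Cebpd was at 33.1–38.3 CPM in control and 282–366 CPM in Inf. IL-4/13 alone raised 5 and lowered 4, beside 2.78% and 2.57% of all tested genes, the largest rises being Phlda1 by 0.82, Errfi1 by 0.65, and Ccn2 by 0.62. Adding IL-4/13 to Inf raised 9 and lowered 5, beside 7.55% and 7% of all tested genes, with Ccn2 up by 1.02, Phlda1 by 0.72, and Csrnp1 by 0.66. The interaction was called for 3 of these genes in the direction of Egr1 and for 2 in the opposite direction, beside 1.52% and 1.59% of all tested genes. The largest term was in the opposite direction, Sgk1 at −0.68 (edgeR adjusted p = 7.2e-08), with Nr4a2 at −0.47 (adjusted p = 0.0055). Those in the direction of Egr1, like these chosen after their values were seen, were Trib1 at 0.42 (edgeR adjusted p = 0.0046), Ier2 at 0.39 (adjusted p = 0.0097), and Nr4a1 at 0.39 (adjusted p = 0.0027).

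AP-1 target genes, 15 genes of matrix breakdown and growth listed as known targets in other systems, were all tested, and 8 rose and 4 fell with Inf, beside 16.3% and 15.3% of all tested genes. The collagenase Mmp13 rose by 7.15 on the log2 scale (SE 0.120, edgeR adjusted p = 7.5e-29), from 0.629–0.960 CPM to 101–116 CPM. Mmp10, a stromelysin, rose by 5.97. Csf2, which encodes GM-CSF, had at most 1 count in a control library and was at 22.2–26.0 CPM with Inf, at least 137.9-fold higher than 3 counts in a control library. The protease Plau and the EGF receptor ligand Hbegf moved the other way, falling by 1.49 and 1.17 with Inf. Both rose with IL-4/13 alone, by 1.00 and 0.60, and when IL-4/13 was added to Inf, by 1.41 and 1.16. Plau was at 18.9–19.5 CPM in control, 36.2–41.0 with IL-4/13, 5.9–7.9 with Inf, and 16.1–21.2 with IL-4/13 + Inf, which overlapped with control.

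Over the whole list of targets, IL-4/13 alone raised 6 and lowered 0, beside 2.78% and 2.57% of all tested genes, and 12 had an unadjusted p below 0.05. Mmp10 rose by 1.38, on only 19, 22, and 9 counts against 8, 4, and 8 in control. Csf2 was called on counts of 8, 3, and 1 against 0, 0, and 1. Only IL-4/13 replicate 1 was above 3 counts, so no fold is given for Csf2 here. Adding IL-4/13 to Inf raised 7 and lowered 1, beside 7.55% and 7% of all tested genes, with Plau, Hbegf, and the urokinase receptor Plaur (0.62) leading. The median log2 fold change of the list was 0.58 with Inf, 0.22 with IL-4/13, and 0.23 for IL-4/13 + Inf against Inf. The list names genes that AP-1 can control elsewhere, and whether AP-1 bound or controlled them in these cells was not measured.

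**Figure D5:**
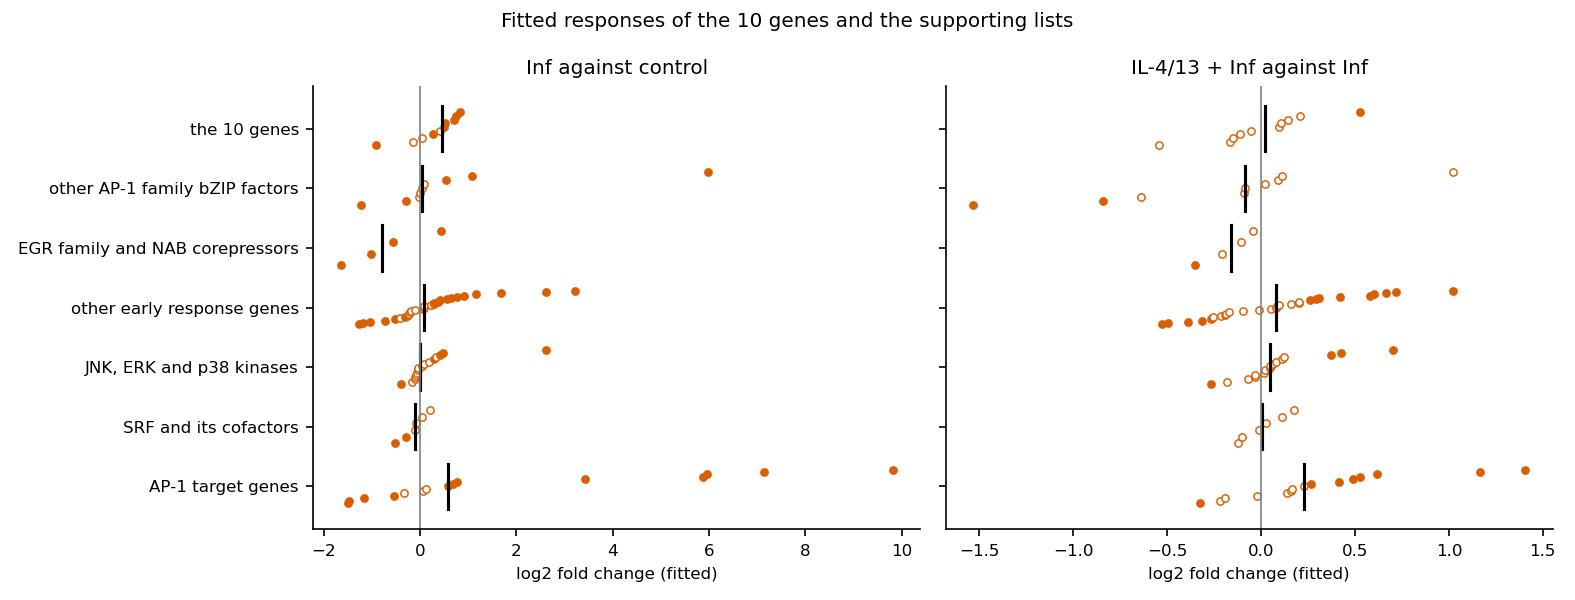
Fitted log2 fold changes of the 10 genes and of the supporting lists with Inf against control (left) and with IL-4/13 + Inf against Inf (right), with axis ranges that differ. Each point is a tested gene, filled where it passed both thresholds, and the vertical bar is the median of the list. The points of Batf and Csf2 at the far right on the left side depend on the prior count of the fit, because their control libraries held 0 or 1 counts.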

How the data were processed

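RNA from 12 libraries of 3T3-L1 fibroblasts was selected for polyadenylated transcripts and made into stranded libraries with an Illumina kit. The authors deposited raw counts, whole numbers of reads per gene, without normalization. The submitters' processing notes name STAR, featureCounts, and GRCm39. Versions, annotation, strand setting, and the treatment of reads shared between genes are not given in the sources used here, and reads of overlapping genes on opposite strands may therefore be split or merged. No value column was left unmapped.

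Samples were grouped by their titles. Counts were filtered with filterByExpr by condition (minimum count 10, minimum total 15), scaled with TMM factors, and fitted with edgeR 4.0.16 (R 4.3.3, limma 3.58.1), with a robust quasi-likelihood model of all 12 libraries with a term for each condition. Adjustment followed Benjamini and Hochberg over the 14810 genes of each of 6 comparisons. The study's methods name DESeq2 for these libraries without thresholds. DESeq2 1.42.0 was an alternative here, and the thresholds (0.05 and a log2 fold change of 0.25) are those the study gives for pseudobulk data. CPM were computed from the effective library size. Log2 CPM for correlations had a prior count of 2. Depth was 13446005 to 20775769 counts, and limits based on 3 counts cover counting error only. The models were tested on simulated counts. Sequences were read with pandas 2.3.3 and numpy 2.4.6 under Python 3.11.15, and plots were drawn in matplotlib 3.10.9.

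The text names every member, the 3 called genes with the largest absolute change per supporting list in the responses to IL-4/13, to Inf, and to IL-4/13 on top of Inf, the 3 genes most correlated with each member, and all treatment check genes. A few genes that this rule names are not reported here. The members and lists were chosen with earlier results of these data known. Exon lengths, overlaps, and shared 50-base stretches (0% for every member) came from GENCODE M21 on GRCm38. Alternatives were a replicate block, DESeq2, scaling by its size factors or by library size, testing without a filter or above a mean of 50 counts, fitting only the groups compared, leaving out each library, and other thresholds. The study's other experiments were not used here.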

Additional observations from a re-analysis of the deposited data

Results flagged for a closer look

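The response of Egr1 to IL-4/13 differed with and without Inf by 0.41 on the log2 scale, by the interaction term of the fit (SE 0.0915, 95% interval 0.23 to 0.60, edgeR adjusted p = 0.0059). IL-4/13 gave −0.21 in cells without Inf, where the mean level was 84.8 ± 6.44 CPM in control and 73.5 ± 2.26 CPM with IL-4/13 (SD, n = 3 each). It gave 0.21 in cells with Inf, where the mean level was 44.8 ± 2.70 CPM with Inf and 51.6 ± 3.49 CPM with IL-4/13 + Inf. Neither response passed the fold change threshold, and the Inf and IL-4/13 + Inf libraries overlapped. The interaction of Egr1 was called in all 12 fits that left out 1 library.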

How the results depend on the processing

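Of 404 log2 fold changes of the members recomputed with all libraries of a comparison, 397 kept their direction and their side of the thresholds. The call of Fosb with Inf was lost with DESeq2 (adjusted p = 0.081), library size alone (0.054), no filter (0.10), only the groups compared (0.058), and the replicate block (0.054), and the cause was not tested. A mean of at least 50 counts gave opposite signs to Fosl2 with IL-4/13 (−0.00055) and to the interaction of Jund (−0.0066), which were not called. The replicate block changed no other call of a member. Deviations of same-numbered libraries had correlations of −0.146 to 0.054, and 0 of 18 were over 0.1, so no pairing by number was seen. These correlations take all tested genes together and cannot settle whether the libraries were paired.

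Leaving out 1 library gave 720 values, of which 670 kept direction and call, 20 lost a call, 3 gained one, and 27, none of them called, changed sign. Those changes of sign had ranges of −0.18 to 0.23 (Fos), −0.011 to 0.13 (Fosl1), and −0.043 to 0.032 (Fosl2) with IL-4/13, −0.034 to 0.10 (Fosl1) with Inf, −0.12 to 0.10 (Fosb) and −0.086 to 0.049 (Fosl1) with IL-4/13 + Inf against control, and −0.081 to 0.32 (Fos), −0.15 to 0.069 (Fosb), and −0.054 to 0.058 (Jund) in the interaction. Counts of members called ranged from 1 to 2 higher and 0 to 1 lower with IL-4/13, from 4 to 6 higher with Inf, and from 0 to 2 higher for IL-4/13 + Inf against Inf. Egr1 was the member gained, with IL-4/13 without control replicate 2 (−0.26) and when IL-4/13 was added to Inf without Inf replicate 3 or IL-4/13 + Inf replicate 3 (0.26 each).

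Thresholds moved the counts most. With a log2 threshold of 0, members called were 1 lower with IL-4/13, 2 lower with Inf, and 2 higher and 1 lower for IL-4/13 + Inf against Inf. At 0.5, they were 0 higher with IL-4/13, 1 lower for IL-4/13 + Inf against IL-4/13, and 0 in the interaction. At 1, they were 0 higher with IL-4/13, 0 higher and 0 lower with Inf, 1 higher and 0 lower for IL-4/13 + Inf against control, 0 higher against Inf, 1 higher and 0 lower against IL-4/13, and 0 in the interaction. At an adjusted p of 0.01, 0 were higher for IL-4/13 + Inf against Inf. Over all tested genes, a threshold of 1 gave 87 higher and 21 lower with IL-4/13, 786 and 309 with Inf, 714 and 382 with the combination, 133 and 105 for the combination against Inf, 630 and 306 for the combination against IL-4/13, and 17 and 23 in the interaction. A threshold of 0.5 gave, in the same order, 193 and 116, 1514 and 863, 1269 and 865, 350 and 404, 1201 and 733, and 67 and 96. A threshold of 0 gave 667 and 607 with IL-4/13, 1818 higher for IL-4/13 + Inf against Inf, and 2471 lower for IL-4/13 + Inf against IL-4/13, and an adjusted p of 0.01 gave 245 lower with IL-4/13 and 129 and 148 in the interaction.

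Scaling moved the median of all genes by less than 0.04 on the log2 scale. With 3 libraries per condition, Fos, Fosb, and Atf3 rest on 26 to 184 counts per library, and differences inside their intervals were not detectable.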
